A study of Homo sapiens with 9 samples.

Results

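The genes of glycolysis and of the cellular response to low oxygen were followed in MDA-MB231, a human breast cancer line of the triple-negative class, across cells with a control hairpin and cells with either of 2 hairpins against Coco. The list holds 42 genes, of which 38 had a probe set carrying their symbol alone, out of 11963 gene symbols on the array. It was chosen by function, with earlier results of these data known: 17 glycolytic enzymes, 4 regulators of glycolytic flux, 5 genes of oxygen sensing and hypoxia-inducible factors (4 measured) and 16 targets of these factors without a role in glycolysis (13 measured). CA9, ANKRD37 and INSIG2P1 had no named probe set, and the probe set for EGLN2 carries more than 1 symbol and was not used. For a gene with several probe sets, the one with the highest mean over the 9 arrays was taken.

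All 3 lines carry a stably integrated pLKO lentiviral vector, with a scramble hairpin (shscramble, called scramble here) or with a hairpin against Coco, shco2 or shco4. Coco, the product of DAND5, is a secreted antagonist of BMP, Nodal and activin ligands. Every line has 3 biological replicates, and 1 Affymetrix 3′ array was hybridised per replicate. All cells were grown in DMEM with 10% fetal bovine serum in a 5% CO2 incubator, and the labels give no low-oxygen treatment and no number of clones or transductions. The annotation names 0 probe sets for DAND5, so the knockdown itself was not analysed here. Intensities are linear values as deposited, and array medians lay between 122.5 and 129.6. Values under 16 were set to 16 before logarithms were taken and are printed below as deposited. Markers of the line were bright (VIM had a geometric mean of 12327 in scramble, 9854 with shco2 and 12843 with shco4). PGR, 1 of 6 luminal markers, and VWF, 1 of 4 endothelial markers, lay at the floor of 16 on all arrays. The other luminal markers did not, with scramble geometric means of 4944 for KRT19, 615 for GATA3 and 566 for EPCAM. CDH1 and ESR1 were dim, at 94.6 and 25.2. The summed intensity of 5 markers of the line ranged from 40250 to 41760 in scramble, from 26800 to 28050 with shco2 and from 33790 to 36460 with shco4. Singly, VIM, CD44, CAV1 and MSN were called down with shco2, and AXL was not called. With shco4, AXL was called down (geometric mean 9349 in scramble and 2160 with shco4) and CD44 up. VIM, CAV1 and MSN were not called with shco4. The 6 fibroblast markers summed to between 286 and 342 in scramble, 294 and 321 with shco2, and 481 and 603 with shco4, where LUM alone was called (geometric mean 20.5 in scramble and 208 with shco4). The 4 leukocyte markers measured, of 5, summed to between 85.4 and 129, 84 and 141, and 174 and 328 in the same order, and CD14 alone was called with shco4 (56.1 in scramble and 149.9 with shco4). The 6 luminal markers summed to between 5532 and 7104, 3153 and 3226, and 5377 and 5838, and the 4 endothelial ones to between 95.3 and 109, 62.5 and 119, and 57.5 and 84.6. The part of these shifts in the results was not tested. In a lysate, fewer cells of a kind and less RNA per cell cannot be told apart. The number of arrays, 3 per line, limits the precision.

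Glycolysis splits glucose into pyruvate, first spending ATP to phosphorylate the sugar (hexokinase, glucose-6-phosphate isomerase, phosphofructokinase) and then recovering ATP from the cleaved products (aldolase to pyruvate kinase), with lactate dehydrogenase reducing pyruvate to lactate. When oxygen is plentiful, prolyl hydroxylases mark the alpha subunits HIF1A and EPAS1 (HIF-2 alpha) for binding by VHL and destruction. When oxygen is scarce these subunits persist, pair with ARNT and bind hypoxia response elements, whose core is ACGTG or GCGTG. Many glycolytic enzymes are their targets, as are genes for angiogenesis, pH control, mitophagy and collagen hydroxylation. Aggressive breast cancer lines such as this one are known for a high rate of glycolysis even in air.

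Promoters are shown because the genes were grouped as possible targets of a common factor, for which the core letters can be looked up. Sequences from 250 bases before to 50 bases after the RefSeq start (GRCh38.p14) matched 34 of the 38 genes, with VHL, VEGFA, BNIP3L and NDRG1 unmatched. The core ACGTG stood on either strand in 16 of 34 (47.1%), against 21.6% of all 27305 promoters in the table. ACGTG or GCGTG stood in 79.4% against 48.4%. The median GC content was 70.2% against 58.3%, and both motifs contain CG, so the share was not separated from base composition. Below, BNIP3, PGK1 and GBE1 fell with both hairpins, ENO1 fell with shco2 alone by call and HK2 with shco4 alone by call. Capitals mark ACGTG or GCGTG on either strand, and CACGTG counts on both.
PGK1 chrX:78103998-78104297 (+ strand): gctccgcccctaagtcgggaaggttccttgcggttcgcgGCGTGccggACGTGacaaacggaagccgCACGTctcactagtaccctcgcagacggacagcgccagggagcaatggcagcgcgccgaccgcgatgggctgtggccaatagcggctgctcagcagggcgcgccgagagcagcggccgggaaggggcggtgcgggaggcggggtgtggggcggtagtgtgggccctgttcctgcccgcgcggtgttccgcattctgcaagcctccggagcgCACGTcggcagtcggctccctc
BNIP3 chr10:131981874-131982173 (- strand): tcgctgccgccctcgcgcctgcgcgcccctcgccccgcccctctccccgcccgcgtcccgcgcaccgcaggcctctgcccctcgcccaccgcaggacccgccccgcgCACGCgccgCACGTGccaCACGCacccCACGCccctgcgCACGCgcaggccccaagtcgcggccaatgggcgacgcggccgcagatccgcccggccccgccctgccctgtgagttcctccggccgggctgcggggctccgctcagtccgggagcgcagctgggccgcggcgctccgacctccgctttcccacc
GBE1 chr3:81761596-81761895 (- strand): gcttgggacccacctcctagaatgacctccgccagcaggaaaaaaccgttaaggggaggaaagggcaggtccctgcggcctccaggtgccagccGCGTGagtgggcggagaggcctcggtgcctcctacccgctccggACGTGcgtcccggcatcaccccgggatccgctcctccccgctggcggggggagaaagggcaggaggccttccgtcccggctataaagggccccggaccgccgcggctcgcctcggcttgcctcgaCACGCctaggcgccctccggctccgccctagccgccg
ENO1 chr1:8878637-8878936 (- strand): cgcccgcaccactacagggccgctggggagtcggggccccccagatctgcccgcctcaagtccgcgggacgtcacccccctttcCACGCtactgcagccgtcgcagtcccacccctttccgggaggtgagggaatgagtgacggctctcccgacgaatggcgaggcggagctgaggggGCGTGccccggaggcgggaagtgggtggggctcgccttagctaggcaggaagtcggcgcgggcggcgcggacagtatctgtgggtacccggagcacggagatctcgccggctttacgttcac
HK2 chr2:74833877-74834176 (+ strand): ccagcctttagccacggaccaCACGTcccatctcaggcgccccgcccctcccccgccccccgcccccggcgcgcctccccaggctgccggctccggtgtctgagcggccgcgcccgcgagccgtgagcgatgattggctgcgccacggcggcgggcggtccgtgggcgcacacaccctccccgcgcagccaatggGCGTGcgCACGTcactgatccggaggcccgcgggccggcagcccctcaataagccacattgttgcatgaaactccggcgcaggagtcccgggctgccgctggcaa
Each of these 5 windows holds a match, with 2 to 6 matches per gene. TPI1, PGAM1, MXI1, HK1, PFKM, PFKP and PDK1 had none in this window. A match describes letters and shows no binding.

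With each hairpin, 31 of the 38 genes had a lower mean log2 intensity than in scramble. With shco2, 22 of 38 fell and 2 rose (limma, adjusted p under 0.05), against 20.7% of all 22215 probe sets called, 9.95% down and 10.7% up. With shco4, 16 fell and 0 rose (23 at an unadjusted p under 0.05), against 18.8% called, 9.75% down and 9.05% up. These genes are brighter than most: 35 of 38 had a mean intensity of at least 100, and of 7081 genes that bright, with 1 probe set each, 37.7% were called with shco2 (16.8% down, 20.9% up) and 34.0% with shco4 (17.8% down, 16.2% up). The arrays of the hairpin line and of scramble did not overlap for 29 of 38 with shco2, against 35.8% of all probe sets, and for 23 with shco4, against 32.6%. The median log2 difference over the 38 was -0.42 with shco2 and -0.28 with shco4, where the median over all probe sets was 0 in both. Over the 261 probe sets with a mean of at least 8000, the median was -0.0912 with shco2 and 0.1287 with shco4. Quantile normalization moved these bright probe sets by 0.109 and -0.1203. Quantile normalization gave 23 fallen and 3 risen with shco2, and 20 fallen with shco4. Both comparisons share the scramble arrays.

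Of the 17 glycolytic enzymes, 10 fell with shco2 and 7 with shco4. On the deposited scale these calls stood mostly at different steps, a contrast that depends in part on the scaling. The number that rose was 0 with each, 7 did not pass with shco2 and 10 with shco4, and the medians were -0.39 and -0.18. The share of the 17 called was 58.8% with shco2 and 41.2% with shco4, beside 20.7% and 18.8% of all probe sets. Of genes with a mean of at least 100, 37.7% (16.8% down) were called with shco2 and 34.0% (17.8% down) with shco4. Divided at aldolase, a division made after the values were seen, 1 of 6 enzymes before it and 9 of 11 from it onward fell with shco2. With shco4, 4 of 6 and 3 of 11 fell. After quantile normalization the counts from aldolase onward were 10 fallen and 1 risen with shco2, and 8 fallen with shco4, where ALDOA, PGAM1, ENO1, LDHA and LDHB were added (adjusted p = 0.0152, 0.0124, 0.0424, 0.0066 and 0.029). Before aldolase they were 2 and 4. Between the hairpins, 3 of the first 6 were lower with shco4, and of the other 11, 9 were higher and 1 lower, against 31.0% of all probe sets called in that comparison (16.1% down, 14.9% up). Quantile normalization left the first count at 3 and turned the second into 4 higher and 3 lower. On the deposited scale 76.5% of the 17 were called between the hairpins. Of genes with a mean of at least 100, 53.4% were (29.6% down, 23.8% up).

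**Figure D1:**
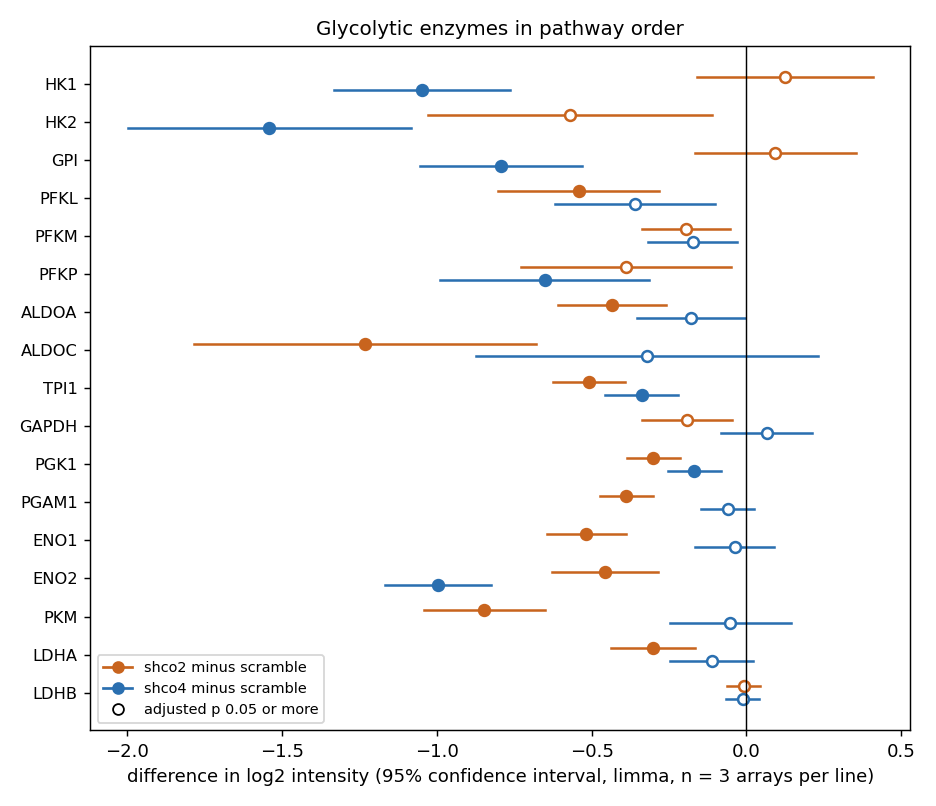
Difference in log2 intensity of each hairpin line from scramble (horizontal axis) for 17 glycolytic enzymes in pathway order (vertical axis), with 95% confidence intervals from limma and 3 arrays per line. Filled points have an adjusted p under 0.05. HK1, HK2 and GPI sit at -1.05, -1.54 and -0.79 with shco4, and PGAM1, ENO1 and PKM at -0.39, -0.52 and -0.85 with shco2.

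Of the first enzymes of the pathway, HK1, HK2, GPI and PFKP fell with shco4. HK1, the hexokinase found in most tissues, had intensities of 2786, 3148 and 2702 in scramble, 3419, 3039 and 2955 with shco2 and 1193, 1587 and 1419 with shco4. The shco4 arrays lay below all others, while shco2 and scramble overlapped. HK1 fell with shco4 by 1.05 ± 0.12 (SE, adjusted p = 0.00245), or 2.07-fold, and differed with shco2 by 0.12 (95% interval -0.16 to 0.41, adjusted p = 0.584). HK2, the inducible hexokinase and a known HIF target, had 739, 662 and 880.4 in scramble, 479.8, 472 and 582 with shco2 and 199.9, 303 and 289 with shco4. Its 3 groups did not overlap, with shco2 between scramble and shco4. HK2 fell with shco4 by 1.54 ± 0.19 (SE, adjusted p = 0.00325), or 2.91-fold, and the difference with shco2 was -0.57 (95% interval -1.03 to -0.11, adjusted p = 0.0879). At the second HK2 probe set the shco4 difference was -1.16 and did not pass (adjusted p = 0.17). That probe set was dim, with a mean of 33.5, and its shco2 difference was 0.48, in the other direction (adjusted p = 0.628). At the probe set taken, the shco2 difference passed with log2(value + 32) (adjusted p = 0.0428) and among probe sets with a mean of at least 100 (adjusted p = 0.0263).

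GPI, which interconverts glucose-6-phosphate and fructose-6-phosphate, had 4315, 3455 and 3659.6 in scramble, 4536, 3792 and 3859 with shco2 and 2035, 2327 and 2220.3 with shco4. Again the shco4 arrays alone were low. GPI fell with shco4 by 0.79 ± 0.11 (SE, adjusted p = 0.00455) and differed with shco2 by 0.094 (95% interval -0.17 to 0.36, adjusted p = 0.677). Of the phosphofructokinases, which commit the sugar to glycolysis, the platelet form PFKP fell with shco4 by 0.65 ± 0.14 (SE, adjusted p = 0.0225). That call ended without scramble replicates 1 and 2 or shco4 replicate 3 (left out in turn, adjusted p up to 0.072). It also failed with replicate number as a blocking factor and with the 2 groups alone (adjusted p = 0.0513 and 0.0771). PFKP differed with shco2 by -0.39 (95% interval -0.73 to -0.05, adjusted p = 0.11). That fall passed with the 2 groups alone (0.0256), among probe sets with a mean of at least 100 (0.0475), and without shco4 replicate 1 or 2 (0.048 and 0.0324). The liver form PFKL fell with shco2 by 0.54 ± 0.11 (SE, adjusted p = 0.0149), a call that ended without shco2 replicate 3 (adjusted p = 0.0532). It differed with shco4 by -0.36 (95% interval -0.62 to -0.10, adjusted p = 0.0646), which passed among probe sets with a mean of at least 100 (0.0356) and without scramble replicate 2 (0.0136). The muscle form PFKM lay between 747 and 954 on all 9 arrays and passed in no comparison. With quantile normalization its shco2 difference passed (adjusted p = 0.0469).

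From aldolase onward the lower values were mostly those of shco2. ALDOA, the aldolase of muscle and most dividing cells, had 10879, 9756 and 9655 in scramble, 8204, 7097 and 7125 with shco2 and 8980.5, 9179.7 and 8578 with shco4. ALDOA fell with shco2 by 0.43 ± 0.073 (SE, adjusted p = 0.00796) and differed with shco4 by -0.18 (95% interval -0.35 to -0.0036, adjusted p = 0.154). ALDOC, the brain form, was dim, at 237, 142 and 225 in scramble, 76.4, 74.3 and 102 with shco2 and 161, 138 and 174 with shco4. ALDOC fell with shco2 by 1.23 ± 0.23 (SE, adjusted p = 0.0117), or 2.35-fold, and differed with shco4 by -0.32 (95% interval -0.87 to 0.23, adjusted p = 0.441). TPI1, which interconverts the products of aldolase, had 7427, 7275 and 6815 in scramble, 5075, 5127 and 4928 with shco2 and 5383, 6009 and 5638 with shco4. All 3 groups were apart, with shco2 lowest. TPI1 fell by 0.51 ± 0.049 (SE, adjusted p = 0.00121) with shco2 and fell by 0.34 ± 0.049 (SE, adjusted p = 0.00536) with shco4.

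GAPDH, the dehydrogenase often used as a reference transcript, was among the brightest members, at 13459.8, 12496 and 12147 in scramble, 12050.0, 10376 and 10978 with shco2 and 13294, 13453 and 13110.1 with shco4. It differed by -0.19 (95% interval -0.34 to -0.045, adjusted p = 0.0762) with shco2 and by 0.066 (95% interval -0.08 to 0.21, adjusted p = 0.554) with shco4, and passed with neither. With quantile normalization the shco2 difference was -0.094 (adjusted p = 0.0426), and at the second GAPDH probe set it was -0.19 (adjusted p = 0.0421). The ratio of 3′ to 5′ signal of the array's own GAPDH control probe sets, a sign of RNA integrity, was 0.899 ± 0.051 on the scramble arrays, 0.914 ± 0.032 on those of shco2 and 0.892 ± 0.011 on those of shco4 (SD, n = 3). PGK1, which makes the first ATP of the pathway, had 9908, 9141 and 9033 in scramble, 7668, 7512 and 7593 with shco2 and 8253, 8477 and 8247 with shco4. It fell by 0.30 ± 0.036 (SE, adjusted p = 0.00232) with shco2 and fell by 0.17 ± 0.036 (SE, adjusted p = 0.0211) with shco4. The shco4 call ended without shco4 replicates 1 and 3 (left out in turn, adjusted p up to 0.0652). It also did not pass with log2(value + 32), median centring, only probe sets with a mean of at least 100, or the 2 groups alone (adjusted p = 0.154, 0.164, 0.133 and 0.0739). At the 2 next brightest probe sets of PGK1 the differences were larger: -0.45 and -0.75 with shco2, and -0.38 and -0.60 with shco4, all past the threshold.

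PGAM1, the mutase that follows, had 8971, 8245 and 8458 in scramble, 6539.6, 6514 and 6554 with shco2 and 7915, 8379 and 8324 with shco4. The shco2 arrays lay below the other 6. PGAM1 fell with shco2 by 0.39 ± 0.035 (SE, adjusted p = 0.00102) and differed with shco4 by -0.06 (95% interval -0.15 to 0.025, adjusted p = 0.328). ENO1, the enolase of most cells, had 13064, 11799 and 12814 in scramble, 9198, 8422 and 8707 with shco2 and 11678, 12540.4 and 12477 with shco4. It showed the same order, falling with shco2 by 0.52 ± 0.053 (SE, adjusted p = 0.00149) and differing with shco4 by -0.037 (95% interval -0.16 to 0.09, adjusted p = 0.752). ENO2, the neuronal enolase and a known HIF target, was lowest with shco4, with 2000.3, 1728 and 1913 in scramble, 1458, 1343 and 1310.0 with shco2 and 928, 898 and 1001 with shco4. It fell by 0.46 ± 0.071 (SE, adjusted p = 0.0062) with shco2 and fell by 0.995 ± 0.071 (SE, adjusted p = 0.00059) with shco4.

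PKM, pyruvate kinase, had 10479.6, 9915 and 9149 in scramble, 6036, 5349.9 and 5066 with shco2 and 9125, 10086 and 9269 with shco4. The shco2 arrays lay far below both other groups, which overlapped. PKM fell with shco2 by 0.85 ± 0.082 (SE, adjusted p = 0.00123), or 1.8-fold, and differed with shco4 by -0.052 (95% interval -0.25 to 0.14, adjusted p = 0.793). LDHA, the lactate dehydrogenase subunit that favours lactate and is a known HIF target, fell with shco2 by 0.30 ± 0.056 (SE, adjusted p = 0.0118), from 13616, 12836 and 12498 in scramble, 11069, 10006 and 10550.4 with shco2 and 11447, 12728 and 11874 with shco4. It differed with shco4 by -0.11 (95% interval -0.25 to 0.023, adjusted p = 0.244). LDHB, the subunit that favours pyruvate, lay between 7789.5 and 8089.7 on all 9 arrays. Its differences were -0.0087 (95% interval -0.062 to 0.044, adjusted p = 0.95) with shco2 and -0.012 (95% interval -0.065 to 0.041, adjusted p = 0.853) with shco4. With quantile normalization LDHB passed in both, at 0.11 (adjusted p = 0.0262) and -0.11 (adjusted p = 0.029).

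**Figure D2:**
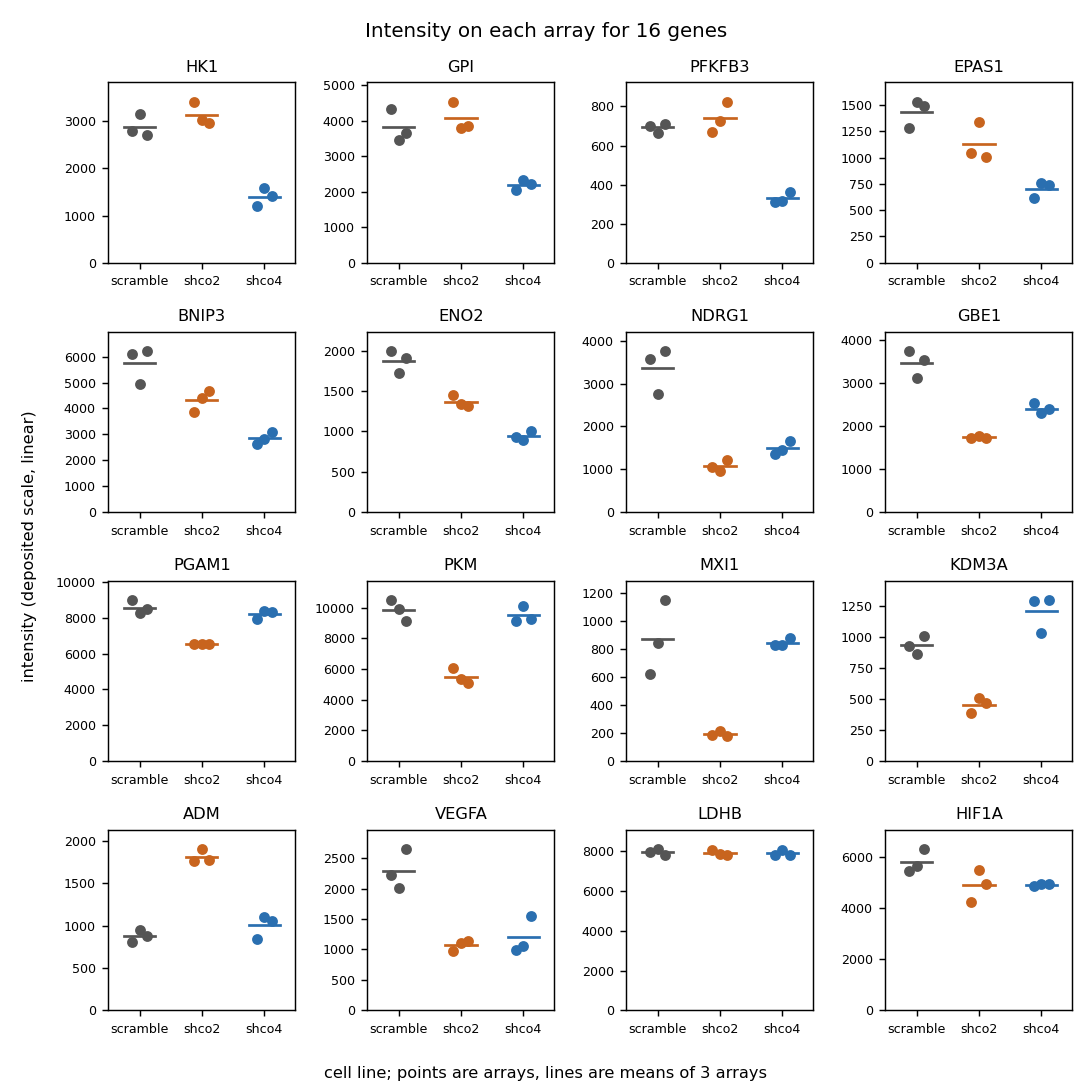
Linear intensity on each of the 9 arrays (vertical axis from 0, deposited scale) for 16 genes, by line (horizontal axis), with points for arrays and short lines for means of 3. GPI is low in the shco4 arrays (2035 to 2327 units), PKM in the shco2 arrays (5066 to 6036), and NDRG1 in both hairpin lines.

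Of the 4 regulators of flux, 2 fell with shco2 and 3 with shco4, and 0 rose. Among all probe sets, 20.7% were called with shco2 (9.95% down) and 18.8% with shco4 (9.75% down). Among genes with a mean of at least 100, 37.7% (16.8% down) were called with shco2 and 34.0% (17.8% down) with shco4. A set of 4 genes is too small for a comparison with these shares. The calls of PFKFB4 and PDK3 ended when arrays or settings were changed, as given below. PFKFB3, which makes the activator fructose-2,6-bisphosphate, had 701, 666 and 711 in scramble, 672, 728 and 825 with shco2 and 309, 316 and 361 with shco4. The shco4 arrays were low and the other groups overlapped. PFKFB3 fell with shco4 by 1.08 ± 0.09 (SE, adjusted p = 0.000945), or 2.11-fold, and differed with shco2 by 0.093 (95% interval -0.12 to 0.31, adjusted p = 0.595). PDK1, a kinase that shuts pyruvate dehydrogenase and a known HIF target, had 343, 261 and 256 in scramble, 232, 214 and 224 with shco2 and 129, 139 and 81.5 with shco4. It fell with shco4 by 1.32 ± 0.22 (SE, adjusted p = 0.00852), or 2.5-fold, and differed with shco2 by -0.35 (95% interval -0.87 to 0.18, adjusted p = 0.365).

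PDK3, a kinase of the same family, fell by 0.71 ± 0.16 (SE, adjusted p = 0.0227) with shco2 and fell by 0.58 ± 0.16 (SE, adjusted p = 0.049) with shco4. It lay at 190.1, 167 and 205 in scramble, 118, 111 and 114 with shco2 and 122, 102 and 157 with shco4. The shco2 call ended without scramble replicates 1 and 3 or shco2 replicates 1, 2 and 3 (left out in turn, adjusted p up to 0.0744). The shco4 call ended without scramble replicates 1, 2 and 3, shco2 replicates 1, 2 and 3 or shco4 replicates 1 and 2 (left out in turn, adjusted p up to 0.133), and also with a floor of 64, quantile normalization, the 2 groups alone, and a trended robust variance (adjusted p = 0.0579, 0.0696, 0.131 and 0.0537). At the second PDK3 probe set the shco2 difference was -0.35 (adjusted p = 0.262) and the shco4 difference -0.91, which passed (adjusted p = 0.0176). PFKFB4, the hypoxia-induced relative of PFKFB3, was near the floor in both hairpin lines, with 73.6, 52.3 and 71.1 in scramble, 25.5, 6.16 and 8.69 with shco2 and 25.7, 51.3 and 8.63 with shco4. It fell with shco2 by 1.80 ± 0.44 (SE, adjusted p = 0.0313), but by 0.12 with a floor of 64 (adjusted p = 0.17). That call ended without scramble replicates 1, 2 and 3, shco2 replicates 2 and 3 or shco4 replicate 1 (left out in turn, adjusted p up to 0.096). It differed with shco4 by -1.23 (95% interval -2.28 to -0.18, adjusted p = 0.108).

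Of the 4 genes of oxygen sensing, EPAS1 fell with shco4 and EGLN1 rose with shco2. HIF1A had 5448, 5637 and 6278 in scramble, 4249, 5459.8 and 4922 with shco2 and 4855, 4925 and 4922 with shco4. Its differences were -0.25 (95% interval -0.48 to -0.022, adjusted p = 0.125) with shco2 and -0.24 (95% interval -0.47 to -0.0078, adjusted p = 0.149) with shco4, and neither passed. EPAS1, the alpha subunit of HIF-2, had 1282, 1533 and 1493 in scramble, 1041, 1343 and 1003 with shco2 and 619.8, 758 and 737 with shco4. The shco4 arrays were below all others. EPAS1 fell with shco4 by 1.03 ± 0.14 (SE, adjusted p = 0.00453), or 2.04-fold, and differed with shco2 by -0.35 (95% interval -0.69 to -0.017, adjusted p = 0.14). Its second, dimmer probe set differed with shco4 by -0.998 and did not pass (adjusted p = 0.158). EGLN1, the main prolyl hydroxylase and itself a HIF target, rose with shco2 by 0.46 ± 0.091 (SE, adjusted p = 0.0148), with 466, 445 and 471 in scramble, 686, 618 and 599 with shco2 and 434, 476 and 378 with shco4. That call ended without scramble replicate 2 (adjusted p = 0.0521). EGLN1 differed with shco4 by -0.11 (95% interval -0.33 to 0.11, adjusted p = 0.51). VHL was at or below 17.5 on all arrays, with 7 of 9 at the floor of 16, so its level could not be followed.

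Of the 13 measured HIF targets without a role in glycolysis, 10 fell and 1 rose with shco2, with a median of -1.05. With shco4, 5 fell, 0 rose and 8 did not pass, with a median of -0.084 and 7 of 13 below 0. The share called was 84.6% with shco2 and 38.5% with shco4, beside 20.7% and 18.8% of all probe sets. Of genes with a mean of at least 100, 37.7% (16.8% down) were called with shco2 and 34.0% (17.8% down) with shco4. The 5 that fell with both were NDRG1, VEGFA, GBE1, BNIP3 and PPFIA4. NDRG1, a stress-responsive gene with a strong response to low oxygen, had 3578, 2751 and 3767 in scramble, 1051, 961 and 1206 with shco2 and 1351, 1445 and 1661 with shco4. Both hairpin lines lay below every scramble array. NDRG1 fell by 1.64 ± 0.15 (SE, adjusted p = 0.00101) with shco2 and fell by 1.17 ± 0.15 (SE, adjusted p = 0.00356) with shco4, or 3.12-fold and 2.25-fold. VEGFA, the angiogenic growth factor, had 2218, 2005 and 2640.4 in scramble, 979.6, 1103 and 1146 with shco2 and 988, 1061 and 1557 with shco4. It fell by 1.08 ± 0.19 (SE, adjusted p = 0.00962) with shco2 and fell by 0.95 ± 0.19 (SE, adjusted p = 0.0176) with shco4. The shco4 call ended without scramble replicates 1 and 3 or shco4 replicates 1 and 2 (left out in turn, adjusted p up to 0.0549), and with the 2 groups alone (adjusted p = 0.0633). The other 3 VEGFA probe sets fell with both hairpins too, by 0.95 to 1.33 with shco2 and 0.77 to 1.07 with shco4.

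GBE1, the glycogen branching enzyme, had 3756, 3132 and 3547 in scramble, 1729, 1768 and 1717 with shco2 and 2539, 2298 and 2396 with shco4. All 3 groups were apart, with shco2 lowest. GBE1 fell by 0.997 ± 0.07 (SE, adjusted p = 0.000453) with shco2 and fell by 0.53 ± 0.07 (SE, adjusted p = 0.00408) with shco4. BNIP3, a mitophagy receptor, had 6102, 4951 and 6221 in scramble, 3876, 4406 and 4656 with shco2 and 2629.8, 2801 and 3081 with shco4. It fell by 1.02 ± 0.12 (SE, adjusted p = 0.00245) with shco4, and fell by 0.41 ± 0.12 (SE, adjusted p = 0.0489) with shco2. The shco2 call ended without scramble replicates 1 and 3, shco2 replicates 1, 2 and 3 or shco4 replicates 1, 2 and 3 (left out in turn, adjusted p up to 0.141), and also with a floor of 64, quantile normalization, the 2 groups alone, and a trended robust variance (adjusted p = 0.0569, 0.0812, 0.0943 and 0.0532). At the second BNIP3 probe set the falls were 0.62 with shco2 and 1.35 with shco4 (adjusted p = 0.00183 and 0.000248). PPFIA4, a liprin scaffold protein induced by hypoxia, was dim, with 139.9, 68.8 and 138 in scramble, 40.5, 20.5 and 38.4 with shco2 and 33.4, 20.3 and 23.6 with shco4. It fell by 1.79 ± 0.40 (SE, adjusted p = 0.0223) with shco2 and fell by 2.12 ± 0.40 (SE, adjusted p = 0.0135) with shco4, but with a floor of 64 by 0.78 in both, where it passed in neither (adjusted p = 0.106 and 0.111). The shco2 call ended without scramble replicates 1 and 3 or shco2 replicate 2 (left out in turn, adjusted p up to 0.0731), and with the 2 groups alone (adjusted p = 0.0564).

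A further 5 targets fell with shco2 and did not pass with shco4: MXI1, DDIT4, KDM3A, BNIP3L and CA12. MXI1, a MYC antagonist of the MAD family, had 622, 847 and 1150.0 in scramble, 184, 213 and 182 with shco2 and 829, 829.8 and 882 with shco4. The shco2 arrays were all below the others. MXI1 fell with shco2 by 2.14 ± 0.21 (SE, adjusted p = 0.00131), or 4.4-fold, the largest fall among the 38 in that comparison, and differed with shco4 by 0.00041 (95% interval -0.50 to 0.50, adjusted p = 1). DDIT4, an inhibitor of mTORC1 signalling, had 4540.1, 4299.6 and 3646 in scramble, 1795, 2439.6 and 1319.7 with shco2 and 5078, 4429.9 and 3879 with shco4. DDIT4 fell with shco2 by 1.21 ± 0.23 (SE, adjusted p = 0.0129) and differed with shco4 by 0.098 (95% interval -0.46 to 0.65, adjusted p = 0.917). KDM3A, a histone H3K9 demethylase, had 931, 863 and 1008 in scramble, 386, 507 and 470.0 with shco2 and 1294, 1029.5 and 1297 with shco4. KDM3A fell with shco2 by 1.05 ± 0.14 (SE, adjusted p = 0.00327), and every shco4 array lay above every scramble array without passing. That difference was 0.36 (95% interval 0.037 to 0.69, adjusted p = 0.124).

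BNIP3L, a mitophagy receptor related to BNIP3, had 2415, 2053 and 2482 in scramble, 1380.0, 1919 and 1302 with shco2 and 2877, 2998 and 3011 with shco4. It fell with shco2 by 0.61 ± 0.15 (SE, adjusted p = 0.0341) and differed with shco4 by 0.36 (95% interval -0.0078 to 0.73, adjusted p = 0.17), with every shco4 array above every scramble array. The shco2 call ended without scramble replicates 1 and 3, shco2 replicates 1 and 3 or shco4 replicates 1, 2 and 3 (left out in turn, adjusted p up to 0.104), and with the 2 groups alone (adjusted p = 0.0942). At the second BNIP3L probe set shco2 fell by 0.47 (adjusted p = 0.00865). BNIP3 was lower and BNIP3L higher with shco4 than with shco2. CA12, a membrane carbonic anhydrase, had 341, 289 and 565 in scramble, 133, 149.9 and 200.0 with shco2 and 331, 369 and 582 with shco4. CA12 fell with shco2 by 1.27 ± 0.33 (SE, adjusted p = 0.0388) and differed with shco4 by 0.12 (95% interval -0.67 to 0.91, adjusted p = 0.955). The shco2 call ended without scramble replicates 1 and 3, shco2 replicates 1, 2 and 3 or shco4 replicate 2 (left out in turn, adjusted p up to 0.116), and with the 2 groups alone (adjusted p = 0.0621). Of the 5 other CA12 probe sets, 4 fell with shco2, by 1.45 to 1.99.

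**Figure D3:**
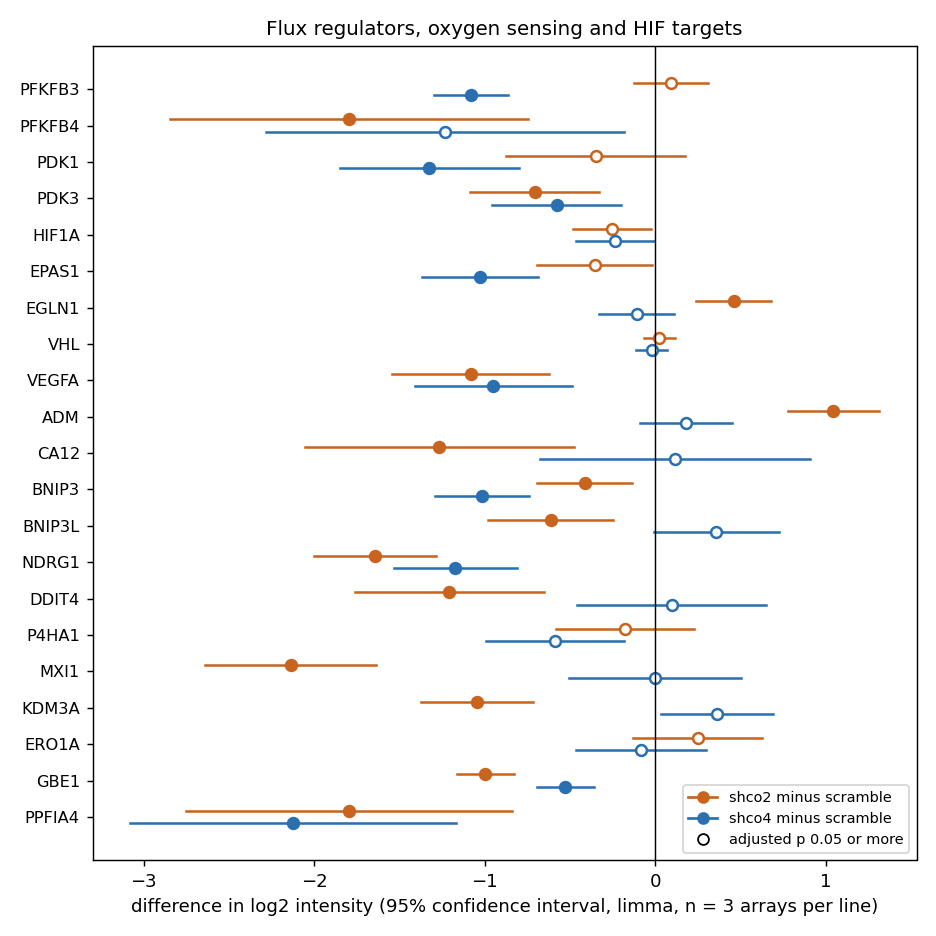
Difference in log2 intensity of each hairpin line from scramble (horizontal axis) for 21 regulators of flux, oxygen-sensing genes and HIF targets (vertical axis), with 95% confidence intervals from limma and 3 arrays per line. Filled points have an adjusted p under 0.05. NDRG1 lies at -1.64 with shco2 and -1.17 with shco4, MXI1 and KDM3A lie at -2.14 and -1.05 with shco2, and ADM is at 1.04 with shco2.

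ADM, the vasodilator peptide adrenomedullin and a common HIF target, was the 1 of these 13 that rose. Its intensities were 814, 949 and 880.0 in scramble, 1768, 1901 and 1776 with shco2 and 843, 1108 and 1061 with shco4. The shco2 arrays were above all others, and shco4 and scramble overlapped. ADM rose with shco2 by 1.04 ± 0.11 (SE, adjusted p = 0.00167), or 2.06-fold, and differed with shco4 by 0.18 (95% interval -0.086 to 0.45, adjusted p = 0.35). P4HA1, a subunit of collagen prolyl hydroxylase, differed by -0.18 (95% interval -0.58 to 0.23, adjusted p = 0.584) with shco2 and by -0.59 (95% interval -0.99 to -0.18, adjusted p = 0.0568) with shco4. The shco4 difference passed with replicate number as a blocking factor (adjusted p = 0.0323), with log2(value + 32) (0.0302), with median centring (0.0369) and among probe sets with a mean of at least 100 (0.0166). ERO1A, which oxidises disulfide bonds in the endoplasmic reticulum, differed by 0.25 (95% interval -0.13 to 0.63, adjusted p = 0.372) and -0.084 (95% interval -0.46 to 0.30, adjusted p = 0.856).

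The members that fell with both hairpins were 9 in number: TPI1, PGK1, ENO2, PDK3, VEGFA, BNIP3, NDRG1, GBE1 and PPFIA4. They are 23.7% of the 38, while 2.24% of all probe sets and 3.91% of the 7081 bright genes fell with both. With each array left out in turn, only TPI1, ENO2, NDRG1 and GBE1 kept both calls throughout. PGK1, PDK3, VEGFA, BNIP3 and PPFIA4 each lost a call in some omissions, as given above. Rises with both numbered 0 (2.35% of all probe sets), as did calls in opposite directions (3.34%). Because the scramble arrays stand in both comparisons, a fall shared by the hairpin lines cannot be told apart from a high value in the scramble line. The 9 include 3 glycolytic enzymes, 1 regulator and 5 other targets. In 6 of the 7 with a promoter in the table the core ACGTG was present, against 47.1% of the members matched and 21.6% of all promoters. It stood in 33.3% of members that fell with shco2 alone by call and in 28.6% with shco4 alone. With GCGTG counted too, the shares were 85.7% with both, 83.3% with shco2 alone and 57.1% with shco4 alone. Over all matched members that share was 79.4%. The groups by call hold only 7, 12 and 7 matched promoters and were sorted by calls in these same data. Their median GC content was 73.3%, 67.3% and 71.7%, against 58.3% of all promoters. The shares were not separated from base composition, and a match shows no binding.

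The test between the hairpins does not use scramble as a level. In it, 25 of 38 members passed, 10 lower and 15 higher with shco4, against 31.0% of all probe sets and 53.4% of the 7081 genes with a mean intensity of at least 100 (29.6% down, 23.8% up). The arrays of the hairpins did not overlap for 28 of 38, against 40.9% of all probe sets. Higher with shco4 by the widest margin were MXI1 at 2.14 ± 0.21 (SE, adjusted p = 0.000589), KDM3A at 1.41 ± 0.14 (SE, adjusted p = 0.000556), CA12 at 1.38 ± 0.33 (SE, adjusted p = 0.0193), DDIT4 at 1.31 ± 0.23 (SE, adjusted p = 0.00599) and BNIP3L at 0.97 ± 0.15 (SE, adjusted p = 0.0037). The CA12 call ended without shco2 replicates 1 and 2 or shco4 replicate 3 (left out in turn, adjusted p up to 0.0651). Lower with shco4 by the widest margin were PFKFB3 at -1.17 ± 0.09 (SE, adjusted p = 0.000249), HK1 at -1.17 ± 0.12 (SE, adjusted p = 0.000667), PDK1 at -0.98 ± 0.22 (SE, adjusted p = 0.0152), HK2 at -0.97 ± 0.19 (SE, adjusted p = 0.00919) and GPI at -0.89 ± 0.11 (SE, adjusted p = 0.00136). The PDK1 call ended without shco2 replicate 1 (adjusted p = 0.0505). ADM, EPAS1, BNIP3, EGLN1 and ENO2 were lower as well, with differences of -0.86, -0.67, -0.60, -0.57 and -0.54. HK1, PFKFB3 and EPAS1 were thus lowest with shco4, and PKM, MXI1 and KDM3A with shco2.

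The difference between hairpins moved with the scaling for several bright enzymes. PKM was higher with shco4 by 0.79 ± 0.082 (SE, adjusted p = 0.000707), ALDOC by 0.91 ± 0.23 (SE, adjusted p = 0.0242), ENO1 by 0.48 ± 0.053 (SE, adjusted p = 0.000922) and PGAM1 by 0.33 ± 0.035 (SE, adjusted p = 0.000859), and these 4 passed after quantile normalization, at 0.62, 0.89, 0.25 and 0.14. The ALDOC call ended without shco2 replicates 1 and 2 or shco4 replicates 1 and 3 (left out in turn, adjusted p up to 0.0794). ALDOA (0.26), GAPDH (0.26), LDHA (0.19) and TPI1 (0.17) passed on the deposited scale. After quantile normalization they lay at 0.052, 0.018, -0.041 and 0.023 and did not pass. PGK1 turned from 0.13 to -0.068 and passed in either direction (adjusted p = 0.0301 and 0.0257). Over all 261 probe sets with a mean of at least 8000, the median difference between the hairpins was 0.24 on the deposited scale and quantile normalization moved it by -0.23. The direction for ALDOA, GAPDH, LDHA, TPI1 and PGK1 between the hairpins is therefore not settled here. The split of calls after quantile normalization was 12 lower and 11 higher.

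**Figure D4:**
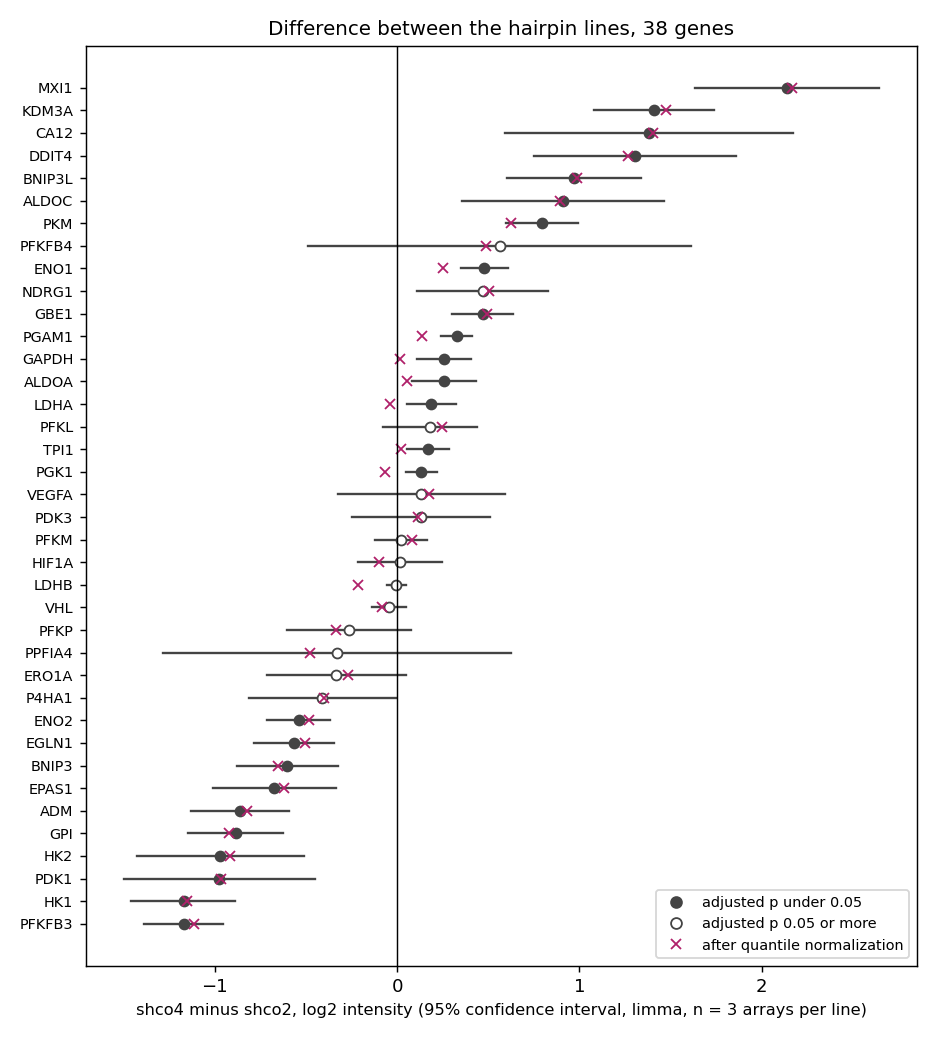
Difference in log2 intensity between the hairpin lines, shco4 minus shco2 (horizontal axis), for the 38 measured genes in order of size (vertical axis), with 95% confidence intervals from limma, 3 arrays per line, and crosses for the same difference after quantile normalization. MXI1 is at 2.14 and PFKFB3 at -1.17, and the crosses of LDHA and PGK1 fall on the other side of 0.

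Leaving out an array also added calls, beside those of PFKP with shco2 and PFKL with shco4 given above. Without shco4 replicate 1 the further calls were HK2 with shco2 (adjusted p = 0.0344) and ADM with shco4 (0.0473). Without shco2 replicate 2 they were EPAS1 with shco2 (0.047) and BNIP3L, which rose, with shco4 (0.0343). Without scramble replicate 2, P4HA1 passed with shco4 (0.0191) and between the hairpins (0.0425), and NDRG1 between the hairpins (0.0278). Without scramble replicate 3, PFKM passed with shco2 (0.032) and shco4 (0.0433). Without shco4 replicate 2, PFKM passed with shco2 (0.0494), PFKFB4 with shco4 (0.0248) and PFKP between the hairpins (0.0288). GAPDH passed with shco2 without shco2 replicate 1 (0.0268), and ERO1A between the hairpins without shco2 replicate 3 (0.0299).

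With single arrays left out, ALDOA's call between the hairpins ended without scramble replicates 2 and 3, shco2 replicates 2 and 3 or shco4 replicates 1, 2 and 3 (left out in turn, adjusted p up to 0.115). The call of TPI1 ended without scramble replicate 2, shco2 replicates 1, 2 and 3 or shco4 replicates 2 and 3 (left out in turn, adjusted p up to 0.117), and that of GAPDH ended without shco2 replicate 3 or shco4 replicates 1 and 2 (left out in turn, adjusted p up to 0.0617). The PGK1 call ended without shco2 replicates 1, 2 and 3 or shco4 replicates 1, 2 and 3 (left out in turn, adjusted p up to 0.0914), and the LDHA call ended without scramble replicates 2 and 3, shco2 replicates 2 and 3 or shco4 replicates 2 and 3 (left out in turn, adjusted p up to 0.13). NDRG1 differed between the hairpins by 0.47 (95% interval 0.11 to 0.83, adjusted p = 0.0557). It passed with log2(value + 32), median centring, quantile normalization and only probe sets with a mean of at least 100 (adjusted p = 0.0344, 0.0384, 0.0457 and 0.0194). GBE1 was higher with shco4 by 0.47 ± 0.07 (SE, adjusted p = 0.00291). VEGFA differed between them by 0.13 (95% interval -0.33 to 0.59, adjusted p = 0.719) and HIF1A by 0.015 (95% interval -0.21 to 0.24, adjusted p = 1), and neither passed.

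Further probe sets of the same genes mostly went the same way. There were 27 of them, for 15 genes. Of the 22 that belong to genes called with shco2, 21 had the same direction, 16 passed in it and 0 passed in the other. With shco4, of 13, all 13 had the same direction and 8 passed. The exception with shco2 was a CA12 probe set near the floor. The probe sets taken for PFKL, ALDOA, TPI1, GAPDH, LDHB, EGLN1 and CA12 are of the array's class whose probes can match related sequences, so signal from near-identical copies cannot be told apart there.

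A wider list of 73 other genes of these pathways, of which 67 were measured, had calls in both directions. With shco2, 21 fell and 3 rose, and with shco4, 17 fell and 7 rose, with medians of -0.16 and -0.098. The share called was 35.8% with each, beside 20.7% of all probe sets with shco2 (9.95% down) and 18.8% with shco4 (9.75% down). Of genes with a mean of at least 100, 37.7% (16.8% down) were called with shco2 and 34.0% (17.8% down) with shco4. Only 54 of the 67 had a mean that high, so the list is not matched to that background. With replicate number as a blocking factor, 22 fell and 8 rose with shco4. Of 25 further HIF targets, 11 fell and 1 rose with shco2, and 10 fell and 2 rose with shco4, or 48.0% called with each. Of 14 further enzymes of glycolysis and pyruvate use, 2 fell and 1 rose with shco2, and 1 fell and 1 rose with shco4, or 21.4% and 14.3% called beside 20.7% and 18.8% of all probe sets. SLC2A1, the glucose transporter GLUT1 and a known HIF target, had 1569, 1606 and 1328 in scramble, 1397, 1013 and 1111 with shco2 and 1492, 1416 and 1315 with shco4. It passed with neither hairpin, at -0.36 (95% interval -0.68 to -0.042, adjusted p = 0.115) and -0.089 (95% interval -0.41 to 0.23, adjusted p = 0.774).

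The 5 largest called differences of that list with shco2 were those of PDHB, TMEM45A, PDP1, HMOX1 and ZNF395. PDHB, a subunit of pyruvate dehydrogenase, had 3333, 3606 and 2912 in scramble, 960.4, 936 and 1030.2 with shco2 and 2393, 2319.7 and 2608 with shco4. It fell with shco2 by 1.75 ± 0.087 (SE, adjusted p = 0.00018), or 3.36-fold. It fell with shco4 by 0.42 ± 0.087 (SE, adjusted p = 0.0189), a call that ended without scramble replicate 1 or shco4 replicates 1 and 2 (left out in turn, adjusted p up to 0.0613) and did not pass with replicate number as a blocking factor (adjusted p = 0.0528) or with the 2 groups alone (0.0612). PDP1, the phosphatase that reactivates that enzyme, fell with shco2 by 1.31 ± 0.14 (SE, adjusted p = 0.00174) and was higher with shco4 than with shco2 by 1.66 ± 0.14 (SE, adjusted p = 0.000359). TMEM45A, a membrane protein induced by low oxygen, fell by 1.38 ± 0.24 (SE, adjusted p = 0.00959) with shco2 and fell by 1.82 ± 0.24 (SE, adjusted p = 0.0042) with shco4. HMOX1, heme oxygenase, fell with shco2 by 1.21 ± 0.20 (SE, adjusted p = 0.0073), and ZNF395, a hypoxia-responsive zinc finger gene, fell by 1.18 ± 0.065 (SE, adjusted p = 0.000215).

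With shco4 the 5 largest were those of PDK4, ANGPTL4, STC1, TMEM45A and PGM1. PDK4, a kinase that shuts pyruvate dehydrogenase, had 8.2, 24.9 and 20.8 in scramble, 23.3, 3.22 and 9.73 with shco2 and 399, 193 and 83.2 with shco4. The shco4 arrays were above all others and spread widely. PDK4 rose with shco4 by 3.20 ± 0.55 (SE, adjusted p = 0.00993), but by 1.54 with a floor of 64, where it did not pass (adjusted p = 0.105). ANGPTL4, a lipase inhibitor, rose by 2.13 ± 0.49 (SE, adjusted p = 0.0273), a call that ended without scramble replicates 1 and 2 or shco4 replicates 1 and 2 (left out in turn, adjusted p up to 0.0891) and with the 2 groups alone (0.0546). STC1, a secreted glycoprotein, fell with shco4 by 1.85 ± 0.14 (SE, adjusted p = 0.000627), and PGM1, which links glycogen to glycolysis, fell by 1.72 ± 0.098 (SE, adjusted p = 0.000299), or 3.3-fold. PGM1 differed with shco2 by -0.19 (95% interval -0.42 to 0.046, adjusted p = 0.26). PLAUR, the urokinase receptor, rose with shco2 by 0.74 ± 0.098 (SE, adjusted p = 0.0035) and fell with shco4 by 0.86 ± 0.098 (SE, adjusted p = 0.00254). Between the hairpins, PDK4, PDP1, PLAUR, PGM1 and HMOX1 had the largest called differences. PDK4 lay at 3.36 (1.54 with a floor of 64, adjusted p = 0.0775), PLAUR at -1.60 ± 0.098 (SE, adjusted p = 0.000124), PGM1 at -1.54 ± 0.098 (SE, adjusted p = 0.000136) and HMOX1 at 1.47 ± 0.20 (SE, adjusted p = 0.00199).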

How the data were processed

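Transcript levels were measured on 9 Affymetrix 3′ arrays, 3 for each of 3 lines. The deposited intensity values are linear. After trimming 2% of values at each end, array means lay between 500.11 and 500.14, and the step that set this scale is not described. The summary method and its software were not given in the sources used here. Of 22277 probe sets, 62 control probe sets were left out and 22215 tested, and 0 columns stayed unmapped. Intensities under 16 were set to 16 and converted to log2, with no further normalization. limma 3.58.1 in R 4.3.3 fitted a mean per line on all arrays, with moderated variances and Benjamini-Hochberg adjustment over all probe sets. Every adjusted p in the text comes from such a fit, and a call is an adjusted p under 0.05. The fit was tested on simulated data.

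Symbols came from the platform annotation, updated through gene identifiers to RefSeq: 19064 probe sets had 1 symbol, 1043 several and 2108 none. The members and lists were chosen with earlier results of these data known. Called members were described singly, uncalled ones by range, except a few fixed by name, and up to 5 called genes of the wider list were named per comparison. Same-numbered scramble and shco4 arrays deviated together from their line means (r = 0.235, 0.133 and 0.233). The main fit did not pair arrays by replicate number, and a block for that number was run only as an alternative. Labels call the replicates biological and do not name separate transductions, so p-values measure the spread between these samples. Alternatives were a floor of 64, log2(value + 32), quantile normalization, median centring, a minimum mean of 100, a block for replicate number, the 2 groups alone, trended robust variances, the second highest probe set, and each array left out in turn. The background over genes with a mean of at least 100 was chosen after seeing the data.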

Additional observations from a re-analysis of the deposited data

Results flagged for a closer look

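For BNIP3L and KDM3A, every shco2 array lay below every scramble array and every shco4 array lay above, so that the hairpin lines moved to opposite sides of the control. The difference between the hairpin lines, shco4 minus shco2 on the log2 scale, was 0.9712 for BNIP3L and 1.4103 for KDM3A, and both passed the limma test of that difference (adjusted p = 0.003702 and 0.000556). Against scramble the shco4 rise passed for neither gene on all arrays, and for BNIP3L it passed without shco2 replicate 2 (adjusted p = 0.0343).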

How the results depend on the processing

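Of 65 called results for the 38 genes, between 53 and 63 kept their direction and their call under each alternative run on all probe sets. The calls lost differed between alternatives. Calls kept in every omission of a single array were 16 of 24 with shco2, 12 of 16 with shco4 and 17 of 25 between the hairpins. Across the alternatives, the number of called genes ranged from 18 to 26 with shco2, from 12 to 20 with shco4 and from 19 to 25 between the hairpins. The median log2 difference over the genes was more sensitive. With a floor of 64 it was -0.2079 with shco4 and 0.0758 between the hairpins. With quantile normalization it was -0.3739 with shco2, and -0.0116 between the hairpins, where the sign turned. With the second highest probe set it was 0.0468 between the hairpins. With single arrays left out it ranged from -0.4776 to -0.3948 with shco2, from -0.2911 to -0.2244 with shco4 and from 0.0087 to 0.1437 between the hairpins. Between the hairpins, quantile normalization reversed PGK1 (-0.0682) and LDHA (-0.0407). The cause of these shifts was not tested beyond the shift of bright probe sets given above.

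Deviations of same-numbered arrays correlated at r = 0.29, 0.0571 and 0.255 for scramble and shco2, and at 0.178, 0.0576 and 0.213 for the hairpins. In every pair of lines, that of scramble and shco4 included, 6 of 6 arrays had their highest correlation with the array of like number. These values do not set scramble and shco4 apart from the other pairs. With the replicate block 22 genes were called with shco2, without PFKFB4 and BNIP3L (adjusted p = 0.0577 and 0.0738), and 25 between the hairpins, without LDHA (0.0908) and with NDRG1 (0.0188). With shco4 the block changed no call of the 38 other than PFKP and P4HA1, and of the 67 other pathway genes 30 were called in place of 24. Calls near the floor of the array, such as PFKFB4, PPFIA4 and PDK4, depend on where that floor is set.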
